A study of Mus musculus with 9 samples.

Results

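The genes described here were 10 components of the canonical TGF-beta pathway in mouse: the ligand genes Tgfb1, Tgfb2 and Tgfb3, the receptor genes Tgfbr1, Tgfbr2 and Tgfbr3, and the Smad genes Smad2, Smad3, Smad4 and Smad7. They were chosen by exact symbol, and all 10 were found among the 38197 symbols of the count and FPKM tables. Polyadenylated RNA was sequenced from wild-type embryonic stem cells of 1 line (E14.1, strain 129) that were grown as a monolayer and driven towards ventral hindbrain neural stem cells by retinoic acid and the Smoothened agonist SAG, which activates Shh signaling. Progenitors were isolated on magnetic beads by the cell surface protein prominin-1 at 4.5, 5.5 and 6.5 days in differentiation conditions (4.5DDC, 5.5DDC and 6.5DDC), with 3 libraries at each time point and 9 in all. By their labels all groups shared genotype, strain, treatment and sort, and differed in time. The times are those of the sample titles, while another label gives whole days, and the labels and methods differ on when retinoic acid and SAG were withdrawn. The labels do not say whether the 3 libraries of a time point came from separate cultures, so p-values measure the spread between these samples, which may be technical.

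TGF-beta ligands are secreted in a latent form and, once released, bind the type II receptor Tgfbr2, which phosphorylates the type I receptor Tgfbr1. Tgfbr1 then phosphorylates Smad2 and Smad3, which join Smad4 and enter the nucleus to regulate transcription, while Smad7 is induced by the pathway and inhibits it at the receptor. In the ventral hindbrain, neural stem cells give rise to motor neurons and later to serotonergic neurons, and the study asks how the time of this switch is set. The comparisons here ask which transcripts of the pathway the progenitors held at each time point, and which differed between them.

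The libraries held between 11066572 and 25506192 counts, so that 3 counts corresponded to between 0.116 and 0.269 CPM, the count scaled to the total of the library times its TMM factor. After removal of genes with low counts, 14742 genes were tested, among them 9 of the 10 pathway components. Tgfb1 did not pass that filter. Across all genes, replicate 1 stood apart from replicates 2 and 3 at every time point. The deviations of the replicate 1 libraries from their time point means correlated over genes with each other (r = 0.733 between 4.5DDC and 5.5DDC, 0.453 between 5.5DDC and 6.5DDC and 0.375 between 4.5DDC and 6.5DDC), and negatively with those of every replicate 2 and 3 library of another time point. Deviations from a mean cancel out within a time point, so the negative correlations follow in part from the positive ones. The labels name no batch that corresponds to replicate 1. Results that rest on these libraries are therefore also given without them, and with a second term in the model that separates replicate 1 from replicates 2 and 3. Both were chosen after the data had been seen.

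In these sorted cells Tgfb2 and Tgfb3 were the ligand transcripts present at several FPKM (fragments scaled to transcript length and library size, a level that can be compared between genes), Tgfbr1 was the most abundant receptor, and Smad3 was the most abundant Smad by its mean, though at 6.5DDC it was above Smad4 in replicate 1 alone. From 4.5DDC to 6.5DDC, Tgfb2 and Tgfbr2 had the highest fold changes of the 9 tested genes with all libraries in the model, but none of the 9 passed the threshold (edgeR quasi-likelihood test, adjusted p under 0.05), against 18.7% of all genes tested. With replicate 1 separated in the model, Tgfb2 and Tgfbr2 rose over the whole span, which is 2 of 9 against 29.7% of all genes in that model. Fewer cells of a type and less RNA per cell cannot be told apart in such bulk samples.

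Tgfb2 encodes a secreted ligand that needs Tgfbr3 for tight binding to Tgfbr2. Its gene lies on the minus strand of chromosome 1 (GRCm38, 186622792 to 186705989). Tgfb2 was at 6.07, 3.87 and 3.59 FPKM in replicates 1, 2 and 3 at 4.5DDC, at 8.24, 4.61 and 5.74 FPKM at 5.5DDC, and at 9.66, 6.65 and 5.88 FPKM at 6.5DDC. Replicate 1 was the highest of its time point each time, and its 4.5DDC value lay above the lowest 6.5DDC value, so the time points overlapped. The mean level was 4.51 ± 1.36 FPKM at 4.5DDC, 6.2 ± 1.86 at 5.5DDC and 7.39 ± 2.0 at 6.5DDC (SD, n = 3). The mean at 6.5DDC was 1.64 times the 4.5DDC mean (two-sided exact permutation p = 0.2, where 3 against 3 libraries allow no p below 0.1). On counts the log2 fold change was 0.71 with SE 0.3 and a 95% interval of 0.049 to 1.37 before adjustment (edgeR adjusted p = 0.119). Over the shorter intervals it was 0.44 from 4.5DDC to 5.5DDC (edgeR adjusted p = 0.521) and 0.27 from 5.5DDC to 6.5DDC (edgeR adjusted p = 0.631).

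Replicate 1 was at 1.63, 1.59 and 1.54 times the mean of replicates 2 and 3 at the 3 time points. Within replicate 1 the log2 CPM was 0.72 higher at 6.5DDC than at 4.5DDC, and within replicates 2 and 3 it was 0.7 higher on average. In replicates 2 and 3 alone, both 6.5DDC libraries lay above both 4.5DDC libraries. With the term for replicate 1, the log2 fold change over the whole span was 0.71 with SE 0.15 (edgeR adjusted p = 0.00563), and 29.7% of all genes passed in that model. Without replicate 1 it was 0.7 with SE 0.19 (edgeR adjusted p = 0.0235), and 31.3% of all genes passed. Over all 21 alternatives the adjusted p of Tgfb2 ran from 0.00563 to 0.307, and it passed in 3.

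**Figure D1:**
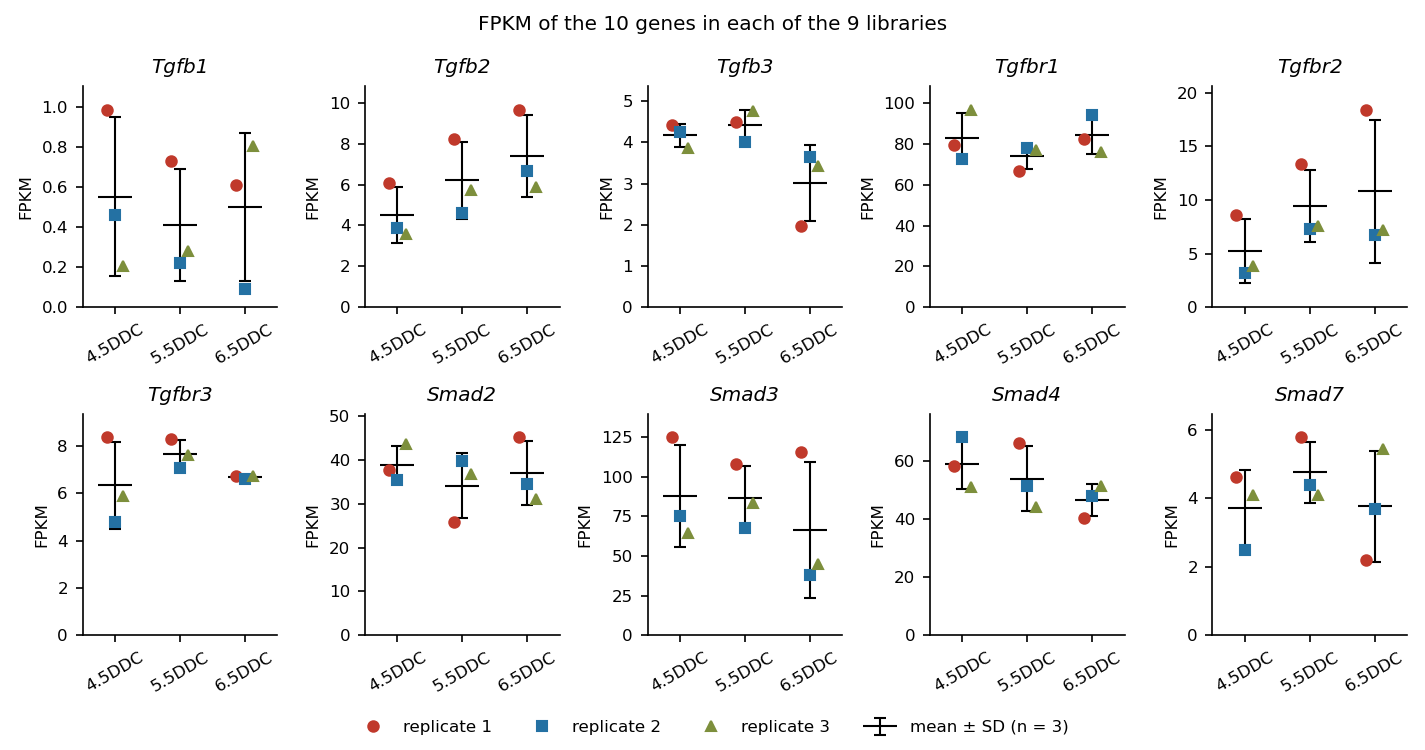
FPKM (vertical axes, each from 0) of the 10 genes at 4.5DDC, 5.5DDC and 6.5DDC (horizontal axes), with 1 symbol for each library and black bars for the mean ± SD of 3 libraries. Replicate 1 (red circles) was the highest library of its time point for Tgfb2, Tgfbr2 and Smad3 at all 3 time points, while Tgfbr1 stayed between 66.7 and 96.7 FPKM.

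Tgfb3, a ligand that signals through the same receptors, lies on the minus strand of chromosome 12 (GRCm38, 86056745 to 86079041). It was at 4.42, 4.24 and 3.86 FPKM at 4.5DDC, at 4.48, 4.0 and 4.76 FPKM at 5.5DDC, and at 1.96, 3.65 and 3.42 FPKM at 6.5DDC. All 3 libraries of 6.5DDC lay below all 6 earlier libraries, and replicate 1 was the lowest of them. The log2 fold change was -0.52 from 5.5DDC to 6.5DDC (SE 0.23, edgeR adjusted p = 0.262) and -0.49 from 4.5DDC to 6.5DDC (SE 0.23, edgeR adjusted p = 0.153). The exact permutation p was 0.1 for both, the smallest that 3 against 3 libraries allow. Within replicate 1 the log2 CPM change from 4.5DDC to 6.5DDC was -1.12, and without replicate 1 the log2 fold change over the whole span was -0.25 (edgeR adjusted p = 0.358, range over the alternatives 0.0977 to 0.358). Genes annotated on the opposite strand overlap 12.4% of the exonic bases of Tgfb3 and 2.14% of those of Tgfb2, and reads from these stretches cannot be assigned to a strand, since the strand setting of the counting is not given in the sources used here.

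Tgfb1, the ligand best known from blood and immune cells, lies on the plus strand of chromosome 7 (GRCm38, 25687002 to 25705077) and was close to the limit of detection. It had between 2 and 19 counts in a library and a mean of 0.552 ± 0.397 FPKM at 4.5DDC, 0.411 ± 0.278 at 5.5DDC and 0.502 ± 0.369 at 6.5DDC (SD, n = 3). These ranges overlapped throughout, and a change of Tgfb1 was not detectable at this depth.

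Tgfb2 made up a higher share of the ligand transcripts in every 6.5DDC library than in any 4.5DDC library. Of the summed FPKM of the 3 ligand genes, Tgfb2 made up 52.9%, 45.2% and 46.9% in replicates 1, 2 and 3 at 4.5DDC, 61.3%, 52.2% and 53.3% at 5.5DDC, and 79.0%, 64.0% and 58.2% at 6.5DDC. The 6.5DDC shares all lay above the 4.5DDC shares (exact permutation p = 0.1, the smallest possible), and both shorter intervals overlapped. Tgfb3 made up 46.1 ± 6.6% at 4.5DDC and 28.3 ± 10.6% at 6.5DDC (SD, n = 3). The sum of the 3 was 9.24 ± 2.01 FPKM at 4.5DDC and 10.9 ± 1.14 at 6.5DDC (SD, n = 3). These shares, which do not depend on the scaling between libraries, were chosen for description after the values had been seen.

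**Figure D2:**
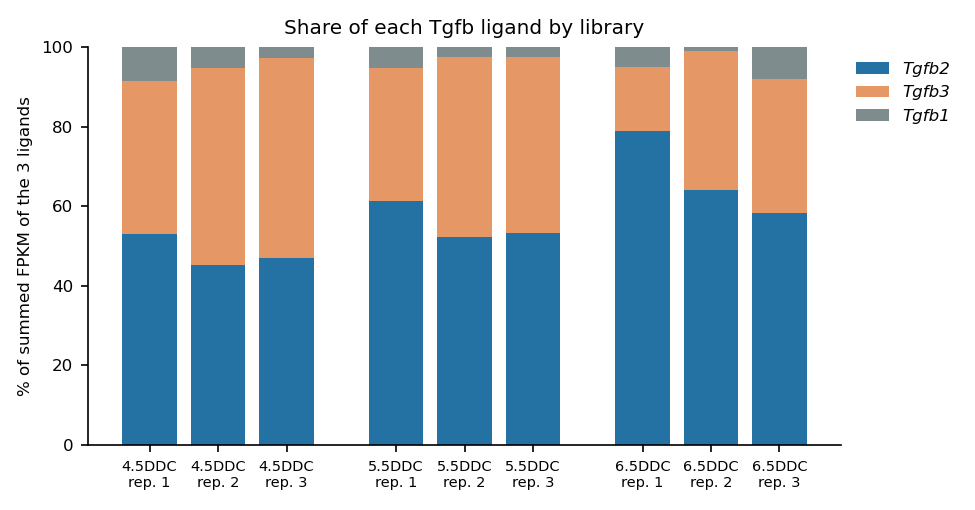
Share of Tgfb2, Tgfb3 and Tgfb1 in the summed FPKM of the 3 ligand genes (vertical axis, percent) in each of the 9 libraries (horizontal axis). Tgfb2 ran from 45.2% to 52.9% at 4.5DDC and from 58.2% to 79.0% at 6.5DDC.

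Among the receptors, Tgfbr2, which binds the ligand first, was the one that varied most. The gene lies on the minus strand of chromosome 9 (GRCm38, 116084293 to 116175360). Tgfbr2 was at 8.64, 3.16 and 3.88 FPKM at 4.5DDC, at 13.3, 7.3 and 7.61 FPKM at 5.5DDC, and at 18.4, 6.75 and 7.17 FPKM at 6.5DDC. Replicate 1 was again the highest library at each time point, at 2.46, 1.78 and 2.65 times the mean of replicates 2 and 3. The mean was 5.22 ± 2.98 FPKM at 4.5DDC, 9.39 ± 3.35 at 5.5DDC and 10.8 ± 6.63 at 6.5DDC (SD, n = 3), with overlapping ranges. On counts the log2 fold change over the whole span was 1.05 with SE 0.49 (edgeR adjusted p = 0.153, estimates of 0.38 to 1.6 over the alternatives), and from 4.5DDC to 5.5DDC it was 0.81 with SE 0.48 (edgeR adjusted p = 0.461).

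Within replicate 1 the log2 CPM of Tgfbr2 was 1.15 higher at 6.5DDC than at 4.5DDC, and within replicates 2 and 3 it was 0.95 higher on average. With the term for replicate 1 the log2 fold change over the whole span was 1.01 with SE 0.17 (edgeR adjusted p = 0.00203), and without replicate 1 it was 0.93 with SE 0.18 (edgeR adjusted p = 0.00727). Over all 21 alternatives the adjusted p ran from 0.00203 to 0.537. Tgfbr2 also passed in the first interval in these 2 models, at a log2 fold change of 0.89 with the term (edgeR adjusted p = 0.0242, against 3.28% of all genes) and of 1.03 without replicate 1 (edgeR adjusted p = 0.0313, against 3.31% of all genes), with a range of 0.0242 to 0.781 over the alternatives. From 5.5DDC to 6.5DDC the estimate was 0.24 with all libraries and -0.094 without replicate 1, and neither passed. Whether the change differed between the intervals was tested directly and did not pass (log2 difference -0.57, edgeR adjusted p = 0.874). Nor did it for any other of the 9, against 0.0% of all genes with edgeR, where 701 genes and 0 of the 9 had an unadjusted p under 0.05, and DESeq2 and limma voom called 0 genes too.

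Tgfbr1, the kinase that passes the signal to the Smads, lies on the plus strand of chromosome 4 (GRCm38, 47353222 to 47414931). It was at 79.4, 72.7 and 96.7 FPKM at 4.5DDC, at 66.7, 78.2 and 76.8 FPKM at 5.5DDC, and at 82.4, 94.3 and 75.9 FPKM at 6.5DDC. Replicate 1 did not stand out, and the 3 time points overlapped. On counts the log2 fold change over the whole span was 0.02 with SE 0.17 (edgeR adjusted p = 0.943). Its 95% interval of -0.35 to 0.39 bounds the change in either direction. In each library Tgfbr1 was above Tgfbr2, by 9.19, 23.0 and 25.0 times at 4.5DDC, 5.04, 10.7 and 10.1 times at 5.5DDC, and 4.47, 14 and 10.6 times at 6.5DDC. The ranges of the ratio at 4.5DDC and 6.5DDC overlapped (exact permutation p = 0.3). Tgfbr3, the co-receptor betaglycan that presents ligand to Tgfbr2, lies on the minus strand of chromosome 5 (GRCm38, 107106570 to 107289629), and another gene on its own strand overlaps 4.54% of its exonic bases. It was between 4.78 and 8.37 FPKM in the 9 libraries, and its log2 fold change over the whole span was 0.1 with SE 0.18 (edgeR adjusted p = 0.726).

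The 250 bases upstream of the start site are shown for Tgfb2 and Tgfbr2, the pair that passed together once replicate 1 was separated, and for Tgfbr1, for comparison. RefSeq promoters of GRCm38.p6 were at hand for 5 of the 10 genes. The reference genome is not of strain 129. The lines give chr1:186705990-186706239 on the minus strand, chr9:116175364-116175613 on the minus strand and chr4:47352972-47353221 on the plus strand, each from 5′ to 3′ along its gene. Capitals mark every match on either strand to TATAAA (the element bound by the TATA-binding protein), CACGTG (an E-box), CGTCA (the core of a cAMP response element), CAGAC (a Smad-binding element) or GACCACCCA (a Gli site).
Tgfb2: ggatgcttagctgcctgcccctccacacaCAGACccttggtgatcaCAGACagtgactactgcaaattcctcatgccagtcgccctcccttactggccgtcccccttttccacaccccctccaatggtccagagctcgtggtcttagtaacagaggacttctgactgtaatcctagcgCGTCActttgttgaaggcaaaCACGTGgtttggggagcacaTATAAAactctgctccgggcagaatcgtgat
Tgfbr2: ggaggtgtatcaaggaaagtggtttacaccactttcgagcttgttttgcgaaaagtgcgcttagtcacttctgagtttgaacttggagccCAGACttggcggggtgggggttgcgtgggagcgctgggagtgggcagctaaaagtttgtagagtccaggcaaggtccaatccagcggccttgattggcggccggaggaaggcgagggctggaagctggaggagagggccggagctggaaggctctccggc
Tgfbr1: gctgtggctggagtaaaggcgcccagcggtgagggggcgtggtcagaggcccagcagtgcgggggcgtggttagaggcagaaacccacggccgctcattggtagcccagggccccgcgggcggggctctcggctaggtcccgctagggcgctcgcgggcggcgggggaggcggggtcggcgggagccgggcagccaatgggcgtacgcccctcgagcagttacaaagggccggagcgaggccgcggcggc

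The Tgfb2 window held TATAAA, starting 31 bases before the start site, CACGTG starting 51 bases before it, CGTCA starting 72 bases before it, and CAGAC starting 204 and 221 bases before it. The Tgfbr2 window held CAGAC starting 160 bases before the start site, and this Tgfbr1 window held none of the 5 motifs. A second RefSeq promoter of Tgfbr1, at chr4:47385966-47386215, held CAGAC starting 203 bases before its start site. Of 32851 promoter windows of this length, 12.4% held TATAAA, 6.02% CACGTG, 17.8% CGTCA, 42.2% CAGAC and 0.225% GACCACCCA on either strand. The motifs were chosen after the sequences had been seen, and a match is a description of letters and not of binding. G and C made up 53.6% of the Tgfb2 window, 58.4% of the Tgfbr2 window and 74.8% of the Tgfbr1 window.

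Smad2, Smad3 and Smad4, which carry the signal, were more abundant than the inhibitor Smad7 in every library. Smad3, on the minus strand of chromosome 9 (GRCm38, 63646767 to 63757994), was at 125, 75.4 and 64.3 FPKM at 4.5DDC, at 108, 67.8 and 83.3 FPKM at 5.5DDC, and at 116, 38.3 and 45.0 FPKM at 6.5DDC. Replicate 1 was the highest library at all 3 time points, and the ranges overlapped. On counts the log2 fold change over the whole span was -0.19 with SE 0.37 (edgeR adjusted p = 0.749), and without replicate 1 it was -0.33 with SE 0.16 (edgeR adjusted p = 0.149, range over the alternatives 0.149 to 0.981). The FPKM and the counts of Smad3 did not run in parallel. The ratio of FPKM to CPM varied 1.87-fold over the 9 libraries for Smad3, 1.59-fold for Smad7 and 1.52-fold for Smad4, against a median of 1.18-fold over 14562 genes and 1.11-fold for Tgfb2.

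Smad2, the other Smad phosphorylated by Tgfbr1, was at 39.0 ± 4.25 FPKM at 4.5DDC, 34.2 ± 7.42 at 5.5DDC and 37.0 ± 7.31 at 6.5DDC (SD, n = 3), with a whole-span log2 fold change of -0.21 (SE 0.18, edgeR adjusted p = 0.422). Smad4, the partner shared with the BMP branch, was at 59.1 ± 8.66, 53.9 ± 11.3 and 46.5 ± 5.64 FPKM (SD, n = 3), with a whole-span log2 fold change of -0.21 (SE 0.12, edgeR adjusted p = 0.246). Smad2, Smad4 and Smad7 all lie on chromosome 18. Smad7, the inhibitor, was at 4.61, 2.48 and 4.08 FPKM at 4.5DDC, at 5.77, 4.38 and 4.1 FPKM at 5.5DDC, and at 2.18, 3.67 and 5.42 FPKM at 6.5DDC. Here the replicates parted: the difference in log2 CPM between 6.5DDC and 4.5DDC was -0.65 in replicate 1 and 0.73 on average in replicates 2 and 3. With all libraries the log2 fold change was 0.32 with SE 0.29 (edgeR adjusted p = 0.452), and without replicate 1 it was 0.72 with SE 0.21 (edgeR adjusted p = 0.0359, range over the alternatives 0.0359 to 0.971). It did not pass with the term for replicate 1 (log2 fold change 0.32, edgeR adjusted p = 0.43).

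Ordered by mean FPKM, Smad3 (88.2) and Tgfbr1 (82.9) led at 4.5DDC, followed by Smad4 (59.1) and Smad2 (39.0). The genes from Tgfbr3 (6.34) through Tgfbr2 (5.22), Tgfb2 (4.51) and Tgfb3 (4.17) to Smad7 (3.72) formed a second tier in which each overlapped the next, and Tgfb1 (0.552) stood below them. At 5.5DDC Smad3 (86.4) and Tgfbr1 (73.9) again overlapped and led, followed by Smad4 (53.9) and Smad2 (34.2). Tgfbr2 (9.39), Tgfbr3 (7.66), Tgfb2 (6.2), Smad7 (4.75) and Tgfb3 (4.41) came next, each overlapping its neighbour, and Tgfb1 (0.411) was last. At 6.5DDC the same 4 genes led, now with Tgfbr1 (84.2) ahead of Smad3 (66.4), Smad4 (46.5) and Smad2 (37.0), and each overlapped the next. Below them came Tgfbr2 (10.8), Tgfb2 (7.39) and Tgfbr3 (6.69), then Smad7 (3.76) and Tgfb3 (3.01). Tgfbr2 stood in place 6 of 10 at 4.5DDC and in place 5 at 6.5DDC, and Tgfb2 in places 7 and 6. By the means of replicates 2 and 3 Tgfbr1 led at all 3 time points, Tgfbr2 stood in places 8 and 5 at 4.5DDC and 6.5DDC and Tgfb2 in place 7 at both, and at 6.5DDC Smad4 (49.6) was above Smad3 (41.7).

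In the first interval none of the 9 tested genes passed, against 0.0746% of all genes, and in the second none passed, against 0.224%. An unadjusted edgeR p under 0.05 was reached by 0 of the 9 in the first interval, against 2275 of 14742 genes. It was reached by 1 in the second (Tgfb3), against 2733, and by 1 over the whole span (Tgfb2), against 5218. DESeq2 (0, 1 and 2 at an unadjusted p under 0.05) and limma voom (1 in each) also called none of the 9. At that unadjusted cut DESeq2 gave 2386 of 13018, 2903 of 13874 and 5372 of 14732 genes. With limma voom these were 2437, 2938 and 5064 of 14742. Replicate numbers paired the samples of adjacent time points, and with the replicate as a block the genes called were 212 (1.44%) in place of 11 in the first interval and 195 (1.32%) in place of 33 in the second, again with none of the 9. The FPKM ranges of 0 of the 9 genes were separate in the first interval, against 23.8% of all genes. They were separate for 2 in the second (Tgfb3 and Tgfbr3, both lower at 6.5DDC), against 24.0%, and for 1 over the whole span (Tgfb3), against 34.5%. In CPM the separate genes were Smad2 in the first interval, Tgfb3 in the second, and Tgfb3 and Smad4 over the whole span, each lower at the later time point, against 25.4%, 25.4% and 35.1% of all genes. The median absolute log2 fold change over the whole span was 0.21 for the 9 genes and 0.41 for all genes tested.

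**Figure D3:**
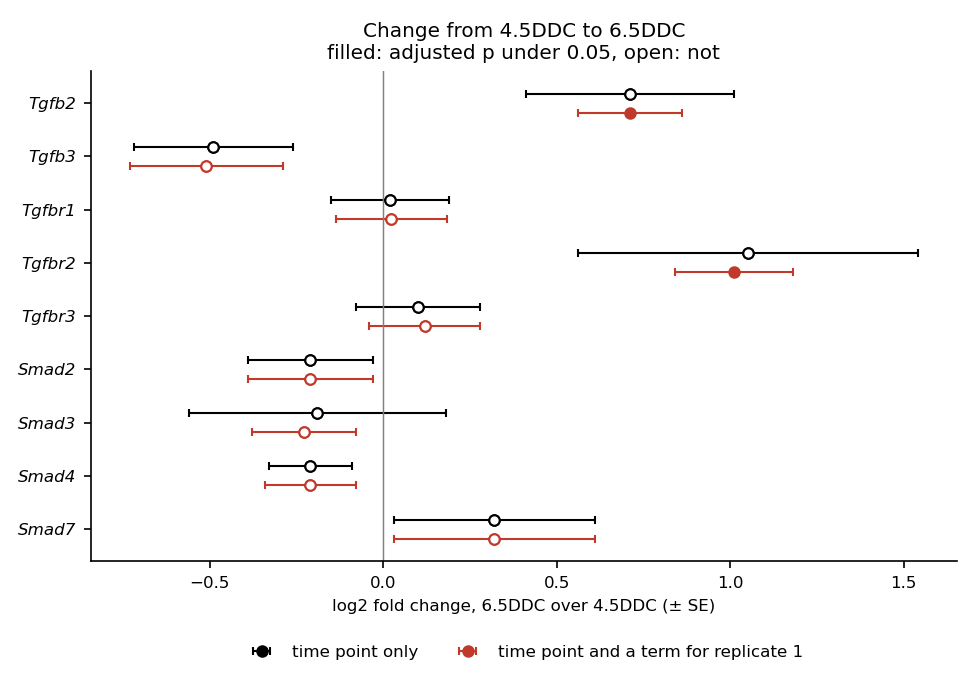
Log2 fold change from 4.5DDC to 6.5DDC (horizontal axis, ± SE) of the 9 genes tested (vertical axis), in the model with the time point only (black) and with a term for replicate 1 (red), where filled circles have an edgeR adjusted p under 0.05. Tgfb2 and Tgfbr2 are filled only in red, where the SE was 0.15 for Tgfb2 and 0.17 for Tgfbr2 in place of 0.3 and 0.49.

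Of 77 further genes of the activin and TGF-beta pathway, 57 were tested, and 7 rose and 4 fell from 4.5DDC to 6.5DDC, which is 11 of 57 against 18.7% of all genes. None passed in the shorter intervals. The count was 6 without 6.5DDC replicate 2, 7 without 4.5DDC replicate 2 and 17 without 5.5DDC replicate 1, where 1125 of 14872, 1152 of 15140 and 3112 of 14894 genes were called among all. It was 18 of 58 without replicate 1 and 22 of 57 with the term for it, against 31.3% and 29.7% of all genes.

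Of 13 genes tested for latency and activation, 2 rose and 2 fell, which is 4 of 13 against 18.7% of all genes, the share that also stands against the counts of the lists below. Itgav and Itgb8 encode the subunits of an integrin that can activate latent TGF-beta, and both rose. Activation of any ligand was not measured here. Itgav was at 24.3, 24.8 and 19.5 FPKM at 4.5DDC and at 35.1, 45.6 and 47.6 FPKM at 6.5DDC (log2 fold change 0.84, SE 0.15, edgeR adjusted p = 0.00582). Itgb8, the most abundant gene of the list by its 6.5DDC mean (43.1 FPKM, against 42.8 for Itgav), was at 23.5, 24.8 and 28.2 FPKM at 4.5DDC and at 44.9, 45.2 and 39.2 FPKM at 6.5DDC (log2 fold change 0.75, SE 0.15, edgeR adjusted p = 0.00862). Ltbp1, which anchors latent TGF-beta in the matrix, fell from 16.1 ± 3.38 to 6.73 ± 1.47 FPKM (SD, n = 3; log2 fold change -1.3, SE 0.25, edgeR adjusted p = 0.00862). Fbn2, a fibrillin of the microfibrils to which such complexes bind, fell from 9.08 ± 2.25 to 3.55 ± 1.37 FPKM (log2 fold change -1.35, SE 0.26, edgeR adjusted p = 0.00907). All 4 passed in each of the 21 alternatives. The median log2 fold change of the 13 was -0.026, and that of all genes was 0.004.

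Of the activin and Nodal branch, which signals through the same Smads, most ligands were too low to test. Only 3 of 10 ligand genes were tested, Gdf1 and Gdf3 had 0 counts in all libraries, and Gdf11 was the most abundant at 17.4 FPKM at 6.5DDC (log2 fold change 0.28, edgeR adjusted p = 0.33). Inhbb, a subunit of activin and inhibin, rose from a mean of 0.0656 to 0.622 FPKM, levels at which few reads decide the value (log2 fold change 3.26, SE 0.99, edgeR adjusted p = 0.0465), and passed in 8 of the 19 alternatives in which it was tested. Of 3 receptor genes tested among 8, Acvr1b, the type I activin receptor, rose from 13.9 ± 1.76 to 22.4 ± 4.5 FPKM (SD, n = 3; log2 fold change 0.67, SE 0.15, edgeR adjusted p = 0.0148), and Acvr2a, a type II receptor, rose from 12.9 ± 1.54 to 20.6 ± 2.69 FPKM (log2 fold change 0.51, SE 0.16, edgeR adjusted p = 0.0491). Acvr1b passed in 20 of 21 alternatives and Acvr2a in 11. The third, Acvr2b, was lower at 6.5DDC, at 4.45 against 9.29 FPKM, and did not pass (log2 fold change -1.04, SE 0.49, edgeR adjusted p = 0.163; called in 1 of 21 alternatives).

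Among 5 extracellular antagonists tested, Bgn, the proteoglycan biglycan that binds TGF-beta, rose with log2 fold change 2.56 (SE 0.6, edgeR adjusted p = 0.0189). It passed in 16 of 21 alternatives, and not with limma voom (adjusted p = 0.0849) or without replicate 2 or 3 of 4.5DDC or of 6.5DDC. Replicates 2 and 3 went from 1.01 and 0.957 to 6.52 and 10.9 FPKM, while replicate 1 was at 2.25 and 2.01 FPKM. Fstl1 was the most abundant of them at 179 FPKM at 6.5DDC (log2 fold change 0.36, edgeR adjusted p = 0.114). Among 21 intracellular partners and inhibitors tested, Nedd4l, a ubiquitin ligase that acts on activated Smad2 and Smad3, rose from 3.34 ± 0.538 to 7.08 ± 0.494 FPKM (SD, n = 3; log2 fold change 1.07, SE 0.15, edgeR adjusted p = 0.00224). Tgif2, a corepressor of Smads, fell from 26.5 ± 4.75 to 16.2 ± 1.87 FPKM (log2 fold change -0.66, SE 0.13, edgeR adjusted p = 0.00972). Both passed in all 21 alternatives, and the most abundant of the list was Strap at 201 FPKM at 6.5DDC (log2 fold change -0.22, edgeR adjusted p = 0.41).

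Of 16 known target genes of TGF-beta tested, none rose and 1 fell. Cdkn2b, a cell cycle inhibitor, fell from 5.08 ± 0.989 to 2.45 ± 0.523 FPKM (SD, n = 3; log2 fold change -1.05, SE 0.27, edgeR adjusted p = 0.0249) and passed in 16 of 21 alternatives. The median log2 fold change of the 16 was 0.44. Tagln was the most abundant at 43.9 FPKM at 6.5DDC (log2 fold change -0.63, edgeR adjusted p = 0.503).

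**Figure D4:**
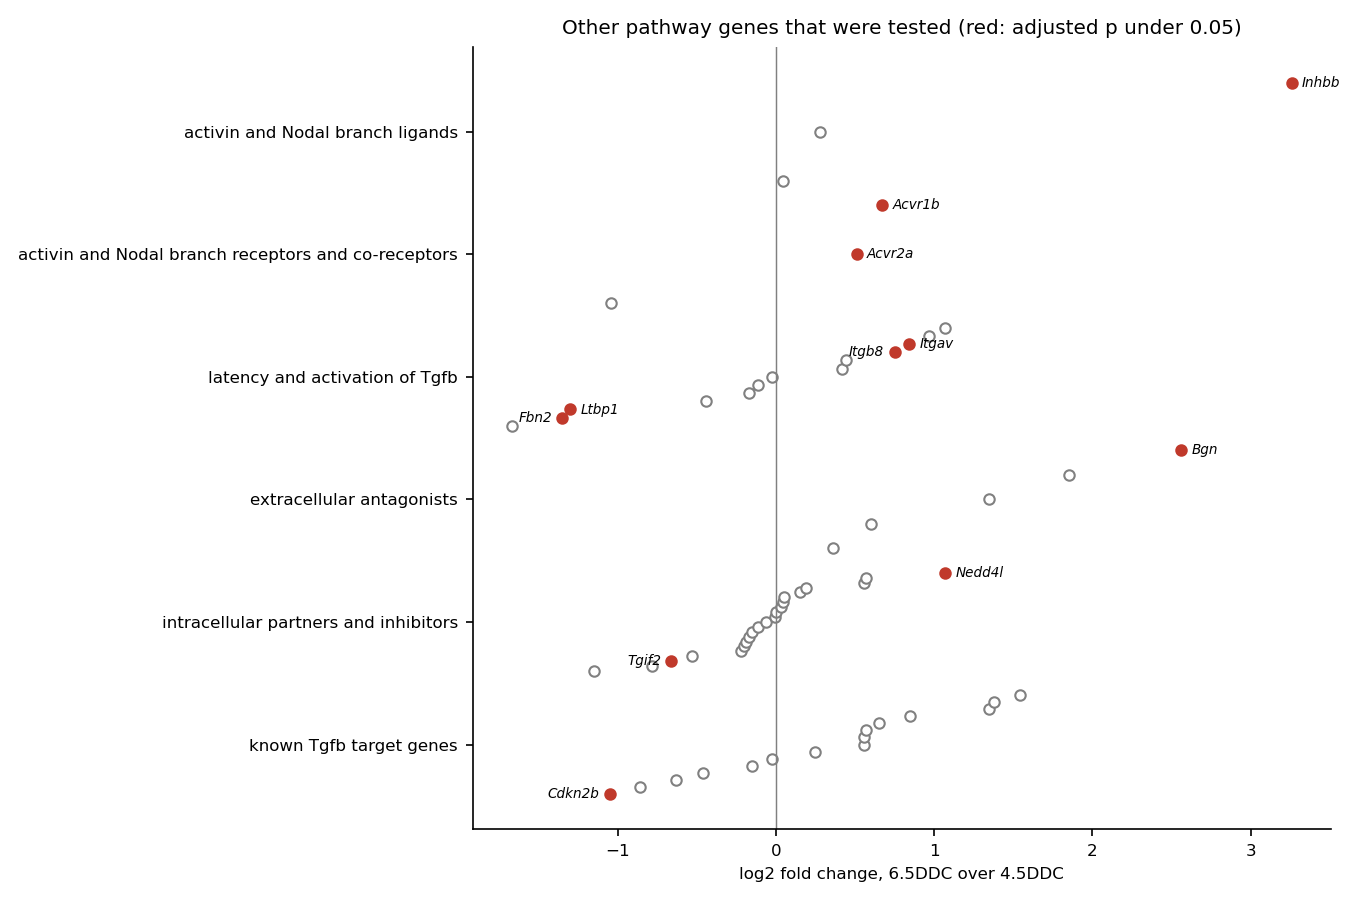
Log2 fold change from 4.5DDC to 6.5DDC (horizontal axis) of the other pathway genes tested, by list (vertical axis, Smad7 left out of the target genes), with 1 circle for each gene and a gene of 2 lists drawn in both. Red circles with names are the 11 genes with an edgeR adjusted p under 0.05.

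Genes of the Shh pathway and of both neuron types were set beside these. From 4.5DDC to 6.5DDC, Gli1, Gli2 and Gli3, the transcription factors of Shh signaling, fell with log2 fold changes of -3.02, -3.09 and -2.61 (edgeR adjusted p = 0.00985, 0.00499 and 0.00107). Ptch1, the Shh receptor, fell with -0.99 (edgeR adjusted p = 0.00816), Nkx2-9 with -4.59 (edgeR adjusted p = 0.00537) and the motor neuron gene Isl1 with -2.44 (edgeR adjusted p = 0.00173). Gata3, of the serotonergic lineage, rose with 2.46 (edgeR adjusted p = 0.0189). Nkx2-2 did not pass (0.16, edgeR adjusted p = 0.78).

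The makeup of the sorted samples was read from marker lists, and the most abundant gene of a list is the one with the highest mean at 6.5DDC. Calls are from 4.5DDC to 6.5DDC, where 18.7% of all genes passed. Of 9 neural progenitor genes all were tested, with Vim the most abundant at 1760 FPKM at 6.5DDC, and Prom1, the gene of the sorted protein, rose from 79.1 to 183 FPKM (log2 fold change 1.19, edgeR adjusted p = 0.00363), while Sox3 fell. Of 6 ventral hindbrain progenitor genes 1 rose (Shh, the most abundant at 257 FPKM) and 3 fell (Nkx2-9, Nkx6-1 and Nkx6-2). Of 6 serotonergic genes 5 rose (Slc6a4, Fev, Gata2, Tph2 and Gata3), with Lmx1b the most abundant at 10.7 FPKM. Of 5 motor neuron genes 2 fell (Isl1 and Phox2a), and Chat did not pass (log2 fold change 0.22, edgeR adjusted p = 0.793). Of 6 postmitotic neuron genes tested 1 rose (Map2), and of the 3 tested oligodendrocyte precursor genes, led at 6.5DDC by Pdgfra at 2.46 FPKM and before that by Olig2 (5.0 FPKM at 4.5DDC), none passed. Of these calls, Nkx6-2 held in 9 of 21 alternatives, Sox3 in 15, Shh in 17, and Nkx6-1 and Gata3 in 19, and Tph2 held in 19 of the 20 in which it was tested. Where replicate 1 had its own term, 29.7% of all genes passed. Dcx, Stmn2 and Snap25 also rose there (edgeR adjusted p = 0.000275, 0.00957 and 0.049). Map2 passed there too (edgeR adjusted p = 0.000737), and Elavl3 and Elavl4 did not. Olig1 and Olig2 fell in that model (edgeR adjusted p = 0.00167 and 0.000731), and Pdgfra rose (edgeR adjusted p = 0.022). Olig1 was at 0.875 FPKM at 4.5DDC and 0.032 FPKM at 6.5DDC.

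Replicate 1 also stood apart in neuron genes. The summed FPKM of the postmitotic neuron list was 153, 298 and 238 in replicates 1, 2 and 3 at 4.5DDC, 151, 395 and 415 at 5.5DDC, and 250, 575 and 626 at 6.5DDC, with Stmn2 the most abundant gene. Replicate 1 was the lowest library at every time point, where it was highest for Tgfb2, Tgfbr2 and Smad3. The part of these cells in the levels of the pathway genes was not tested.

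None of the marker genes found in the tables was at 0 counts in all 9 libraries. The neural crest and mesenchyme list summed to 7.45, 15.1 and 8.22 FPKM at 4.5DDC, 13.5, 29.0 and 26.8 at 5.5DDC, and 14.8, 41.0 and 56.6 at 6.5DDC, with Col3a1 the most abundant gene at 6.5DDC and below Twist1 at 4.5DDC and 5.5DDC, 1 of 7 tested genes risen (Twist1, called in 13 of 21 alternatives), and replicate 1 the lowest library each time. With the term for replicate 1, where 29.7% of all genes passed, Prrx1, Col1a2, Col3a1 and Lum also rose (edgeR adjusted p = 0.0311, 0.0353, 0.000154 and 0.000238). Twist1 passed there too (edgeR adjusted p = 0.0158), and Col1a1 and Pdgfrb did not. The endothelial list summed to between 1.21 and 8.69 FPKM, with 1 of 4 genes risen (Kdr) and Cdh5 the most abundant. The blood and microglia list summed to between 1.92 and 5.67 FPKM, with Cd68 the most abundant and neither of the 2 tested genes called. Csf1r fell with the term for replicate 1 (log2 fold change -1.37, edgeR adjusted p = 0.0441). The endoderm list summed to between 1.52 and 13.5 FPKM, highest in 6.5DDC replicate 1, with Gata4 the most abundant and none of 4 called. Sox17, Gata4 and Gata6 rose with the term for replicate 1 (edgeR adjusted p = 0.0245, 0.0208 and 0.0433), and Epcam did not pass. The pluripotent cell list summed to between 2.07 and 5.1 FPKM, with Klf4 the most abundant and none of 2 called. The part of these cells in the changes of Tgfb2 and Tgfbr2 was not tested.

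The genes most like Tgfb2 over the 9 libraries, by Pearson correlation of log2 CPM among the 11995 genes whose mean reached 2 FPKM, were Ift46 (r = 0.979), Ell2 (0.977), Cckar (0.977), Capsl (0.974) and Vwa3a (0.973). Those most like Tgfbr1 were Nus1 (r = 0.988), Gtf3c3 (0.976), Arpp19 (0.968), Dcun1d1 (0.967) and Usp47 (0.964). The libraries share time points and replicates, so these values are a description. Replicate 1 was the highest library of its time point in CPM at all 3 time points for 4 of the 9 tested pathway genes (Tgfb2, Tgfbr2, Tgfbr3 and Smad3), against 11.1% of all genes tested.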

How the data were processed

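The samples were 9 libraries of prominin-1 sorted cells, 3 at each of 3 time points, grouped by their titles. The authors mapped single-end reads to GRCm38 with TopHat2 (2.0.4), per the labels and methods, and counted reads per gene with HTSeq (0.6.1). The annotation release and strand setting are not given in the sources used here. The deposited count table had values that were not whole for 98 of 38197 symbols, so the authors' values were treated as estimated counts and rounded, where raw counts had been assumed. The FPKM values were computed by the authors with Cufflinks (2.1.1) and used for levels. A deposited table of voom values was not used.

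Counts were tested with edgeR (4.0.16, R 4.3.3) by the quasi-likelihood test after TMM scaling and filterByExpr, over 14742 genes and all 9 libraries with time point as the only factor (6 residual degrees of freedom), with Benjamini-Hochberg adjustment and a threshold of 0.05. FPKM means and shares were compared by two-sided exact permutation tests. The model was tested on simulated data. Alternatives were other scalings and filters, DESeq2 (1.42.0), limma (3.58.1) on voom values or log2 FPKM with pseudocounts of 1 and 0.1, only the 6 libraries compared, a replicate block, each library left out and, added after the data had been seen, replicate 1 left out or given its own term. Tables were made with Python (3.11.15), pandas (2.3.3), numpy (2.4.6) and scipy (1.17.1), and figures with matplotlib (3.10.9). Intervals are edgeR estimates with 95% coverage for a single gene, and floors of 3 counts cover counting error only. Deviations of same-numbered samples correlated above 0.1 in every pair of adjacent time points (lowest r = 0.2). So did those of replicates 2 and 3 across numbers, as between 5.5DDC replicate 3 and 6.5DDC replicate 2 (r = 0.393). This cut therefore does not show that the numbers in the titles pair replicates 2 and 3.

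The members and lists were chosen with earlier results of these data known. All 10 members are named. Of each pathway list up to 4 genes called in any comparison are named by smallest adjusted p from 4.5DDC to 6.5DDC, with its most abundant gene at 6.5DDC, along with genes of the study's timer and the 5 genes most like Tgfb2 and Tgfbr1. Gene positions are from GENCODE M21. Results for some of the genes that these rules cover are not reported here.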

Additional observations from a re-analysis of the deposited data

How the results depend on the processing

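Of 567 values of the 9 tested genes under the 21 alternatives, 533 kept their direction and side of the threshold, 9 passed where they had not, and 25 changed sign without passing. None had passed at the outset, so no call could be lost. The cause of these changes was not tested. With the replicate block, Tgfb2 passed from 4.5DDC to 6.5DDC (0.71, edgeR adjusted p = 0.0153), as did Tgfbr2 (1.02, edgeR adjusted p = 0.00497). This made 2 of the 9, against 3418 of 14742 among all genes. The replicate numbers do not pair these time points (r = 0.375, -0.0189 and -0.181), and not every sample correlated best with its own number. The block changed no other call of the 9. Tgfb2 was at 0.7 without replicate 1 and 0.71 with the term for it. From 4.5DDC to 6.5DDC the 9 gave 3 calls without replicate 1 and 2 with the term, against 31.3% and 29.7% of all genes. From 4.5DDC to 5.5DDC they gave 1 in each, against 3.31% and 3.28%.

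Genes called from 4.5DDC to 5.5DDC were 11, but 25 with no filter, 495 with DESeq2, 7 with limma on log2(FPKM + 1), 1 with only the 6 libraries compared, 212 with the replicate block, 485 without replicate 1 and 484 with its term (1 to 28 with 1 library left out). From 5.5DDC to 6.5DDC they were 33, but 55 with no scaling, 78 with no filter, 662 with DESeq2, 12 and 0 with limma on log2(FPKM + 1) and log2(FPKM + 0.1), 0 with the 6 libraries, 195 with the block, 728 without replicate 1 and 634 with its term (0 to 196 with 1 library left out). From 4.5DDC to 6.5DDC they were 2763, but 4586 without replicate 1 and 4382 with its term. Leaving out 1 library gave 1125 (without 6.5DDC replicate 2) to 3132, with 1152 without 4.5DDC replicate 2.

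Other pathway genes called in the first interval were 0, but 1 with DESeq2, 1 with the block, 3 without replicate 1 and 1 with its term. In the second they were 0, but 2 with DESeq2, 1 with the block, 3 without replicate 1, 4 with its term and 0 to 1 with 1 library left out. Over the whole span they were 11, but 18 without replicate 1, 22 with its term and 6 to 17 with 1 library left out. The members with separate ranges over the whole span were 1 in FPKM (34.5% of all genes) and 2 in CPM (35.1%).

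Leaving out 1 library moved Tgfb2 from 0.44 to 0.98, Tgfbr2 from 0.38 to 1.6 and Tgfbr1 from -0.085 to 0.18 over the whole span, and Tgfbr1 was at -0.036 without replicate 1. Other signs changed for log2 fold changes that had not passed, and none passed with the new sign. From 4.5DDC to 5.5DDC, leaving out 1 library gave -0.03 to 0.09 for Tgfb3 and -0.35 to 0.27 for Smad3, and Smad3 was at 0.0039 and 0.0043 on the FPKM scales and 0.0097 without replicate 1. From 5.5DDC to 6.5DDC it gave -0.43 to 0.57 for Tgfbr2, -0.6 to 0.16 for Smad3 and -0.24 to 0.21 for Smad7, and without replicate 1 Tgfbr2 was at -0.094, Smad2 at -0.075 and Smad7 at 0.32. Over the whole span it gave -0.07 to 0.3 for Tgfbr3, -0.69 to 0.17 for Smad3 and -0.19 to 0.44 for Nkx2-2, and Smad7 was at -0.019 and -0.033 on the FPKM scales. Depth limits Tgfb1, with at most 19 counts in a library.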
